A study of Mus musculus with 9 samples.

Results

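The genes described here encode coagulation and fibrinolysis factors: the proteins that form a fibrin clot, hold clotting in check and dissolve the clot again, with the enzymes and cargo receptors needed to make and secrete them. They were named by symbol, with the protease-activated receptors and the serpins left out, and all 35 were found among the 23337 genes of the deposited count table. All 35 also passed the filter on low counts, which left 13141 genes for testing. Messenger RNA was read by stranded poly(A) sequencing in whole livers of 9 C57BL/6 mice, 3 per group. Every mouse had eaten a high-fat diet (HFD) for 16 weeks from an age of 6 to 8 weeks, so no group shows the liver on an ordinary diet. The WT group carried the genotype PAR2fl/fl, in which the gene for protease-activated receptor 2 is flanked by recombination sites. The dHep group (PAR2dHep) is described as lacking the receptor in hepatocytes, and the KO group (PAR2 KO) as lacking it in the whole body. The driver of the hepatocyte deletion and the structure of the whole-body allele are not given in the sources used here. The series title ties the receptor to dyslipidemia, obesity, fatty liver disease and the transcription factor HNF4a.

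Clotting can start when tissue factor (F3) meets factor VII, the extrinsic pathway, or on surfaces that activate factor XII, the contact pathway. Both lead to factor X, which turns prothrombin into thrombin, and thrombin turns fibrinogen into fibrin. Hepatocytes make most of the circulating factors, while endothelial and stromal cells supply factor VIII, von Willebrand factor, thrombomodulin and the plasminogen activators. Several factors carry a Gla domain, which works only after a vitamin K-dependent carboxylation. Protease-activated receptor 2 (gene F2rl1) is cut and switched on by the factor VIIa and tissue factor complex and by factor Xa, among other proteases.

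Between 18683660 and 30509242 reads were assigned to genes in a library. Reads of F2rl1 numbered 17, 27 and 28 in the WT livers, 2, 8 and 0 in the dHep livers, and 71, 103 and 76 in those with the KO label. Its level thus goes against the KO label (log2 fold change 2.22 ± 0.51 (SE) against WT, edgeR adjusted p = 0.00735), and a count over the whole gene cannot show whether a deleted part is missing. These livers are called "labelled KO" throughout, and each direction drawn from them rests on that label. In dHep the fall in F2rl1 (log2 fold change -2.73 ± 0.66, edgeR adjusted p = 0.0164) did not pass without WT replicate 2 (0.0595), WT replicate 3 (0.0620) or dHep replicate 1 (0.0505), within a range of 6.30e-05 to 0.0620 over 17 alternatives. It grew to -4.40 without dHep replicate 2. Of 8 hepatocyte markers 7 passed the filter on low counts, while Ass1 had only 2 to 13 reads per library. The 8 summed to 96900 to 102300 CPM (reads scaled to a library of 1e+06) across WT, 105000 to 149600 across dHep and 101400 to 114200 in the livers labelled KO. Most of each sum was Alb, with means of 78850, 96050 and 76420 CPM in the same order, so the sums say little of the other markers. Of the 7 tested, 4 rose and 0 fell in dHep at an edgeR adjusted p under 0.05 (median log2 fold change 0.93). In the livers labelled KO 1 rose and 0 fell (median 0.54). Of all genes tested, 12.4% rose in dHep and 20.9% in the livers labelled KO. RNA of other tissues stood out in 2 libraries: pancreatic acinar markers summed to 390.9 CPM in WT replicate 1 and 1568 in dHep replicate 2, against 12.56 to 84.57 in the others, and skeletal muscle markers to 445.7 CPM in dHep replicate 2, against 0.778 to 40.9. The mice are separate animals, but the labels give no litter, cage or batch, and the p-values measure only the spread between these animals.

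The clotting genes of the WT liver spanned more than 3 orders of magnitude in level per length, here reads per kilobase of gene length at a common library size (RPKM). The fibrinogen chains led, with Fgb at 1800 ± 193 RPKM (SD, n = 3), Fgg at 1627 ± 194 and Fga at 1036 ± 165. Fgb and Fgg overlapped between mice, and both lay above Fga. Prothrombin (F2, 644 ± 17.6 RPKM), plasminogen (Plg, 605 ± 38.3) and high-molecular-weight kininogen (Kng1, 536 ± 28.1) came next, and each overlapped its neighbour in this order. Hrg (403 ± 50.6 RPKM), Cpb2 (218 ± 10.3) and Proc (147 ± 6.81) followed without overlap. Factors IX, V and XII were close together, at 117 ± 3.79, 116 ± 1.09 and 115 ± 6.47 RPKM for F9, F5 and F12. F7 (24.5 ± 2.54 RPKM) and F11 (23.5 ± 5.16) overlapped and were lower than the other proteases of the cascade. The members at the low end were those of other cell types, down to Plat (1.10 ± 0.172 RPKM), Procr (0.973 ± 0.204), Plaur (0.629 ± 0.275) and F13a1 (0.360 ± 0.0826). All members together took 1.86% to 2.15% of assigned reads across WT, 2.05% to 2.65% across dHep and 2.65% to 2.71% in the livers labelled KO, with dHep replicate 2 at the level of the lowest of these.

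**Figure D1:**
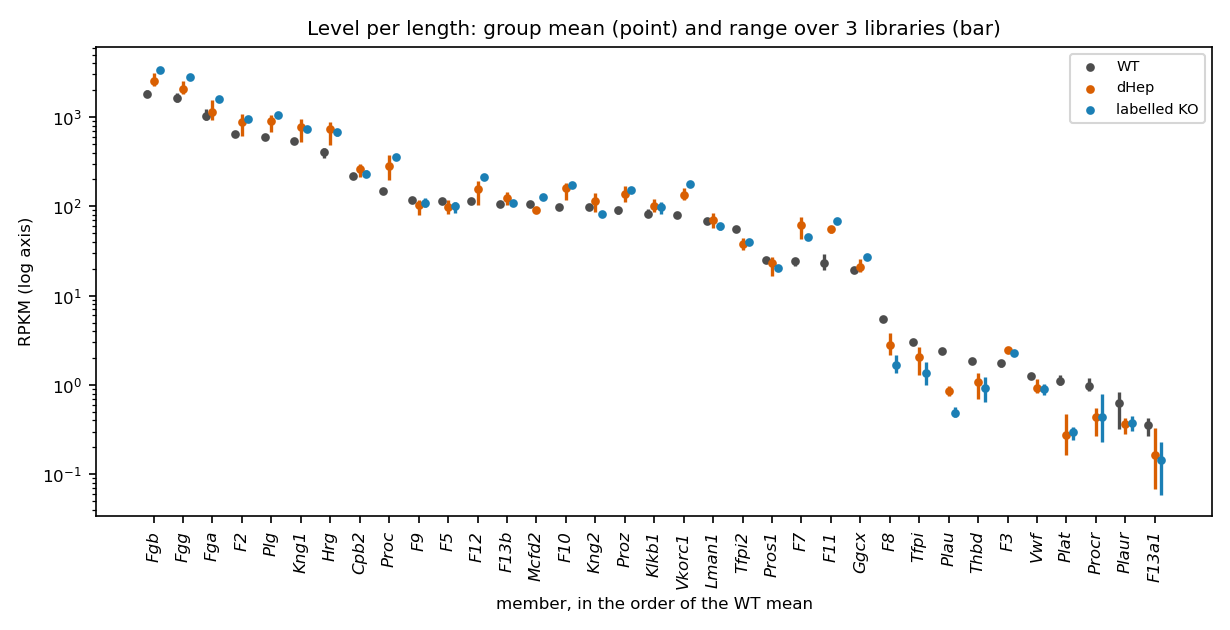
Level per length of each member on a logarithmic axis, in RPKM, as the mean of each group (point) with the range over its 3 livers (bar), in the order of the WT means. The fibrinogen chains stand at the top, with Fgb reaching 3513 RPKM in the livers labelled KO, and Plaur and F13a1 at the bottom under 1 RPKM.

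In dHep against WT, 13 of the 35 genes passed an adjusted p of 0.05 in edgeR's quasi-likelihood test. Of all genes tested 24.3% passed. The members that rose were 9, where 12.4% of all genes rose, and those that fell were 4, where 11.9% of all genes fell. Their median log2 fold change was 0.23, against 0.02 over all genes. The count fell to 8 without WT replicate 2 or WT replicate 3 and went up to 19 without dHep replicate 1. Without WT replicate 1 and dHep replicate 2, the livers with RNA of other tissues, it was 10, of which 4 rose and 6 fell. Leaving out those 2 livers together ended the dHep calls of F3 (edgeR adjusted p = 0.131), F10 (0.0641), Plg (0.124), Proz (0.0623) and Hrg (0.0605). It also ended the calls against WT of F2 (0.103) and Mcfd2 (0.114) in the livers labelled KO, and those of Plau (0.136) and Mcfd2 (0.0635) against dHep; the range over all alternatives stands with each gene. In the livers labelled KO against WT, 21 members passed, where 43.0% of all genes did. Here 14 rose, beside 20.9% of all genes, and 7 fell, beside 22.1% of all genes, with a median of 0.23 against -0.01. The 2 comparisons share the WT livers and are set side by side only. In the livers labelled KO against dHep, 2 members passed, where 9.62% of all genes did: Mcfd2 rose (4.23% of all genes rose) and Plau fell (5.39% of all genes fell). That last count ranged from 0 to 7 when single libraries were left out.

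The members were also grouped by the cells known to make them. Beside them stand the shares of all genes tested: 12.4% rose and 11.9% fell in dHep, and 20.9% rose and 22.1% fell in the livers labelled KO. Of 20 genes made by hepatocytes, 7 rose and 0 fell in dHep (median log2 fold change 0.44), and 11 rose and 0 fell in the livers labelled KO (median 0.68). Of 11 genes of endothelial, stromal or blood-derived cells, 1 rose and 4 fell in dHep (median -0.81), and 0 rose and 7 fell in the livers labelled KO (median -1.11). The gene that rose was F3. Of the 4 genes of the vitamin K cycle and the cargo receptor, 1 rose in dHep and 3 in the livers labelled KO (medians 0.08 and 0.37). In whole liver, fewer cells of a type and less RNA per cell cannot be told apart.

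**Figure D2:**
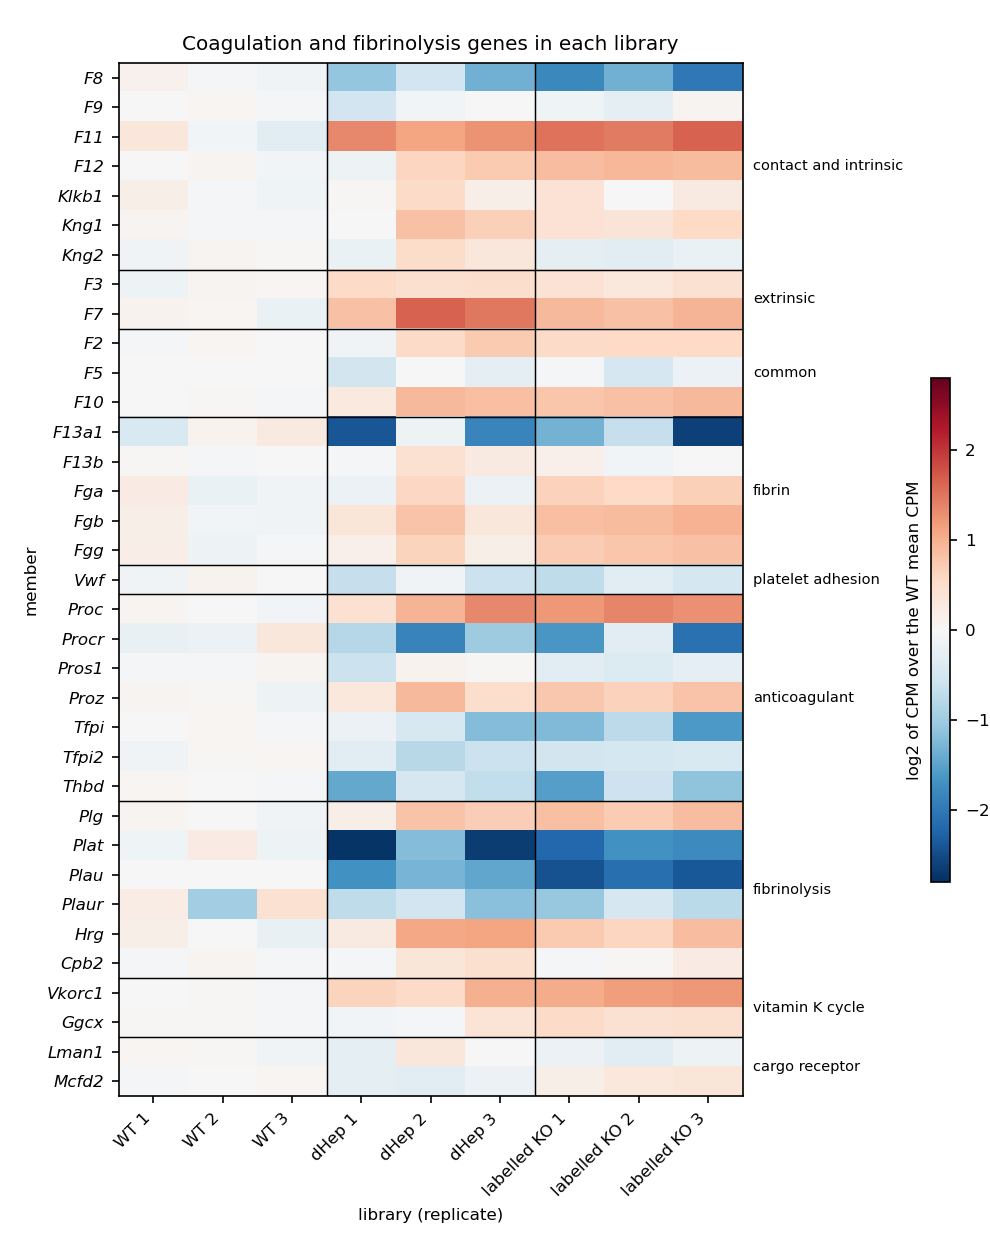
Colour map of the log2 ratio of CPM to the WT mean for the 35 members (rows, grouped by role) in the 9 libraries (columns). Red rows such as F11, F7, Proc and Vkorc1 lie above WT in all 6 other livers, blue rows such as F8, Plat and Plau lie below it in all 6, and dHep replicate 1 is paler than its 2 companions in many of the red rows.

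Both genes of the extrinsic pathway rose in dHep. F7, the protease that tissue factor binds and whose active form is a known activator of PAR2, had 49.0, 47.3 and 40.1 CPM in WT, 80.3, 142.3 and 126.6 in dHep, and 85.2, 80.0 and 88.0 in the livers labelled KO. Every liver of both other groups lay above every WT liver, and dHep replicate 1 was the lowest of its group. F7 rose 2.56-fold in dHep (log2 fold change 1.36 ± 0.19, edgeR adjusted p = 0.00174) and 1.86-fold in the livers labelled KO (0.89 ± 0.19, adjusted p = 0.00477). Between those groups it did not pass (-0.46 ± 0.18, adjusted p = 0.138 in edgeR), but did without dHep replicate 1 (-0.67, adjusted p = 0.00832, in a range of 0.00832 to 0.402). F3, the tissue factor that starts the pathway, had 2.97, 3.45 and 3.39 CPM in WT, 4.74, 4.46 and 4.56 in dHep, and 4.32, 4.02 and 4.39 in the livers labelled KO. The 3 groups did not overlap, although the whole range is narrow. F3 rose in dHep (0.49 ± 0.15, edgeR adjusted p = 0.0400) and did not pass in the livers labelled KO (0.38 ± 0.15, adjusted p = 0.0676). The dHep call ended in edgeR without WT replicate 1 (adjusted p = 0.151), WT replicate 2 (0.102), WT replicate 3 (0.108), dHep replicate 1 (0.0731), dHep replicate 3 (0.0576), KO replicate 2 (0.0529) or KO replicate 3 (0.0593), in a range of 0.0372 to 0.151.

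Because the series title names HNF4a, promoters were searched for its binding letters. RefSeq windows (GRCm38.p6, 250 bases before to 50 after a start) were matched by symbol for 27 of the 35 members, in 31 windows. The letters CAAAGTCCA or CAAAGGTCA, on either strand, were in 2 member windows (6.45%) and in 312 of 32851 windows of all genes (0.95%). The 2 member matches are shown because they fall in a gene that rose, F7, and in one that passed in no comparison, F9. The F7 stretch is chr8:13025940-13026033 (+), directly before the start, with the match on the opposite strand from 34 to 26 bases before it, and the F9 stretch is chrX:59999396-59999464 (+), with a match that begins 8 bases before the start and ends on it. Capitals mark the matching letters.
F7: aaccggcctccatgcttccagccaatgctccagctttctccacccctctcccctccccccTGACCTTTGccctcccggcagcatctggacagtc
F9: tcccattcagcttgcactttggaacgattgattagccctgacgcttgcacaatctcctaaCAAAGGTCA
A match is a description of letters in a window, not of binding.

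Among the contact and intrinsic factors, F11 showed the largest rise. Factor XI, which thrombin and factor XIIa activate, had 65.5, 49.7 and 43.0 CPM in WT, 134.3, 113.0 and 126.7 in dHep, and 151.0, 145.6 and 164.7 in the livers labelled KO. The 3 groups did not overlap, and the lowest dHep liver was far above the highest WT liver. F11 rose 2.37-fold in dHep (log2 fold change 1.24 ± 0.15, edgeR adjusted p = 0.000945) and 2.92-fold in the livers labelled KO (1.54 ± 0.15, adjusted p = 0.000216). Its neighbour on chromosome 8, Klkb1, which encodes plasma prekallikrein and lies 7419 bases away (mm10), had 189.3 to 228.3 CPM across WT, 210.7 to 296.7 across dHep and 203.7 to 272.5 in the livers labelled KO. All groups overlapped and Klkb1 passed in no comparison, with log2 fold changes against WT of 0.26 and 0.23. F12, the protease that starts the contact pathway, had 222.4, 239.0 and 214.1 CPM in WT, 203.3, 341.8 and 373.4 in dHep, and 409.7, 426.2 and 416.9 in the livers labelled KO. dHep replicate 1 lay below the WT livers, the other dHep livers above them, and the livers labelled KO were all higher than any other. F12 rose in the livers labelled KO (0.89 ± 0.19, edgeR adjusted p = 0.00578) and did not pass in dHep (0.44 ± 0.19, adjusted p = 0.124), where it did without dHep replicate 1 (0.67, adjusted p = 0.00227, in a range of 0.00227 to 0.351).

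Factor VIII moved the other way. F8, the cofactor of factor IXa that liver sinusoidal endothelial cells make, had 44.9, 40.0 and 38.2 CPM in WT, 19.4, 28.4 and 16.0 in dHep, and 11.7, 16.1 and 10.2 in the livers labelled KO. WT livers lay above all others, and dHep and livers labelled KO overlapped narrowly. F8 fell by 0.95 ± 0.22 on the log2 scale in dHep (edgeR adjusted p = 0.0151) and by 1.69 ± 0.23 in the livers labelled KO (adjusted p = 0.000705). Leaving out WT replicate 1 ended the dHep call (edgeR adjusted p = 0.0511, in a range of 0.000520 to 0.0511). Between dHep and the livers labelled KO, F8 did not pass (-0.74 ± 0.23, adjusted p = 0.0689), and did in DESeq2 (0.0175) and in edgeR without dHep replicate 3 (0.0236), in a range of 0.0175 to 0.205. Its partner F9 had 307.9 to 328.6 CPM across WT, 220.6 to 318.6 across dHep and 269.6 to 337.0 in the livers labelled KO, overlapped everywhere and passed nowhere (-0.19 and -0.09 against WT).

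The kininogens, cofactors of the contact phase and the source of bradykinin, did not pass in any comparison. Kng1 had 1493 to 1647 CPM across WT, 1541 to 2739 across dHep and 1988 to 2301 in the livers labelled KO (log2 fold changes against WT 0.54 ± 0.21 and 0.44 ± 0.21, edgeR adjusted p = 0.0885 and 0.110). Kng2 had 230.7 to 258.7 CPM across WT, 218.2 to 354.8 across dHep and 197.6 to 217.7 in the livers labelled KO, the last being below both other groups. The ratio of Kng1 to Kng2 in RPKM was 6.21, 5.12 and 5.18 in WT, 6.14, 6.71 and 7.05 in dHep, and 8.69, 8.75 and 9.19 in the livers labelled KO. Those labelled KO lay above every other liver. This ratio was chosen after the values were seen. An exact two-sided permutation test gave p = 0.1, the smallest that 3 against 3 allows, for the livers labelled KO against either group, and 0.2 for dHep against WT (adjusted over 9 ratio comparisons 0.129 and 0.225). The 2 genes are close relatives 29198 bases apart, so how reads were split between them is uncertain.

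In the common pathway, F10 rose in both comparisons with WT. Factor X, the protease that makes thrombin and a second known activator of PAR2, had 264.0, 268.5 and 257.6 CPM in WT, 317.5, 490.6 and 474.7 in dHep, and 450.9, 465.6 and 496.7 in the livers labelled KO. No WT liver reached the lowest liver of the other groups, and dHep replicate 1 was the closest to WT. F10 rose by 0.70 ± 0.16 on the log2 scale in dHep (edgeR adjusted p = 0.0124) and by 0.84 ± 0.16 in the livers labelled KO (adjusted p = 0.00287). The dHep call was lost when WT replicate 2 or WT replicate 3 was left out (edgeR adjusted p = 0.0506 and 0.0586), in a range of 0.000228 to 0.0641. F2, prothrombin, had 1258, 1321 and 1263 CPM in WT, 1205, 1866 and 2124 in dHep, and 1850, 1875 and 1875 in the livers labelled KO. Here dHep replicate 1 lay below all WT livers, while the other dHep livers and those labelled KO lay well above them. F2 rose in the livers labelled KO (0.54 ± 0.19, edgeR adjusted p = 0.0466) and did not pass in dHep (0.44 ± 0.19, adjusted p = 0.133). In edgeR this call was lost without WT replicate 1 (adjusted p = 0.113), WT replicate 2 (0.104), WT replicate 3 (0.122), KO replicate 1 (0.0797), KO replicate 2 (0.107) or KO replicate 3 (0.109), in a range of 0.000464 to 0.122. Without dHep replicate 1 the dHep change was 0.64 (adjusted p = 0.00491, in a range of 0.00491 to 0.321). F5, the cofactor of factor Xa, had 850.4 to 866.5 CPM across WT, 602.8 to 861.2 across dHep and 624.4 to 829.1 in the livers labelled KO. Its changes of -0.24 and -0.22 against WT did not pass (edgeR adjusted p = 0.293 and 0.290).

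The genes of factor VII, factor X and protein Z stand in a row on the plus strand of chromosome 8 (mm10): F7 at 13026034 to 13035809, F10 at 13037308 to 13056676 and Proz at 13060908 to 13075006. The gaps are 1498 and 4231 bases. Protein Z, the cofactor of an inhibitor of factor Xa, had 231.7, 225.5 and 199.4 CPM of Proz in WT, 267.8, 408.4 and 307.5 in dHep, and 371.5, 340.1 and 382.1 in the livers labelled KO. All livers of the other groups lay above WT. Proz rose by 0.58 ± 0.15 on the log2 scale in dHep (edgeR adjusted p = 0.0233) and by 0.74 ± 0.15 in the livers labelled KO (adjusted p = 0.00477), so that all 3 neighbours rose in each comparison with WT. Leaving out WT replicate 1, 2 or 3 ended the dHep call of Proz (edgeR adjusted p = 0.0552, 0.0737 and 0.102), in a range of 0.00178 to 0.102.

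**Figure D3:**
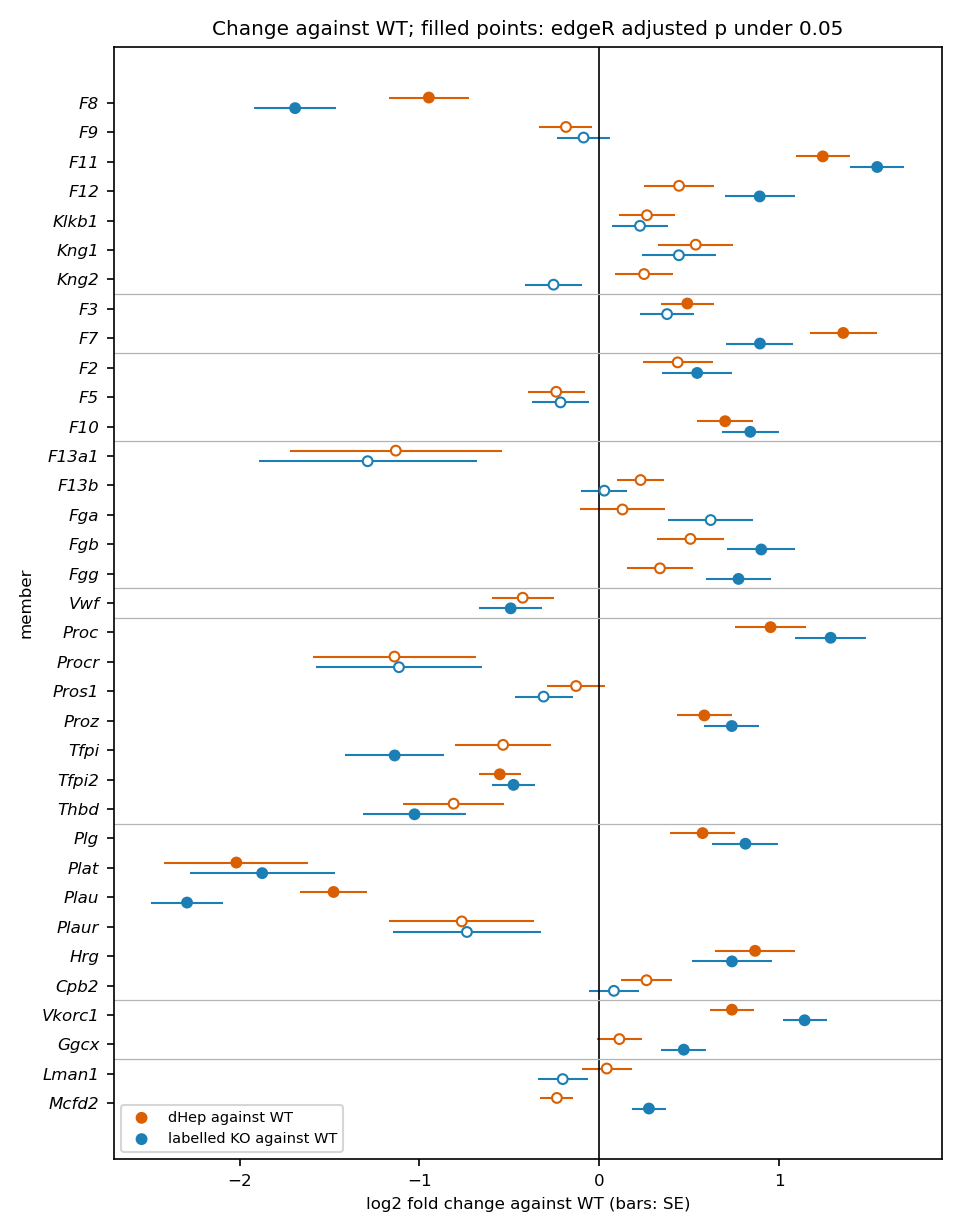
Log2 fold change with its SE for each of the 35 members against WT in dHep (orange) and in the livers labelled KO (blue), grouped by role between the grey lines, with filled points for genes that passed an edgeR adjusted p of 0.05. Filled points number 13 for dHep and 21 for the livers labelled KO, and F11, F7 and Proc lie far right where Plau, Plat and F8 lie far left.

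Of the 3 fibrinogen chains, Fgb and Fgg rose in the livers labelled KO and Fga did not pass, and 0 of 3 passed in dHep against WT. Fgb had 3183, 2670 and 2643 CPM in WT, 3562, 4961 and 3541 in dHep, and 5114, 5212 and 5526 in the livers labelled KO. The 3 groups were ordered without overlap, with dHep replicate 2 close to the livers labelled KO. Fgb rose 1.87-fold in the livers labelled KO (log2 fold change 0.90 ± 0.19, edgeR adjusted p = 0.00480) and did not pass in dHep (0.51 ± 0.19, adjusted p = 0.0775). The dHep change passed in DESeq2 (adjusted p = 0.00505) and in edgeR without dHep replicate 1 (0.0394) or dHep replicate 3 (0.0484), in a range of 0.00505 to 0.216. Fgg had 2813, 2251 and 2370 CPM in WT, 2753, 3844 and 2791 in dHep, and 4077, 4225 and 4405 in the livers labelled KO. WT replicate 1 lay within the dHep range, and the livers labelled KO lay above all others. Fgg rose in the livers labelled KO (0.77 ± 0.18, edgeR adjusted p = 0.00849), and its change in dHep was 0.34 ± 0.18 (adjusted p = 0.205). Fga had 4114, 3083 and 3249 CPM in WT, 3124, 5207 and 3088 in dHep, and 5406, 5116 and 5517 in the livers labelled KO. Only dHep replicate 2 came near the livers labelled KO. Fga missed the threshold there (0.62 ± 0.23, edgeR adjusted p = 0.0579) and passed it under 8 of 17 alternatives, among them leaving out dHep replicate 1 (0.0368), dHep replicate 2 (0.00953) or dHep replicate 3 (0.0363), in a range of 0.00145 to 0.171. Together the 3 chains took 0.857% to 1.10% of assigned reads across WT, 0.831% to 1.31% across dHep and 1.40% to 1.43% in the livers labelled KO.

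The 3 chains are joined in equal numbers in the fibrinogen molecule, so the ratios of their messages are described as well. The RPKM ratio of Fga to Fgb was 0.605, 0.541 and 0.576 in WT, 0.411, 0.491 and 0.408 in dHep, and 0.495, 0.460 and 0.467 in the livers labelled KO. Fgg to Fgb was 0.913, 0.871 and 0.926 in WT, 0.798, 0.800 and 0.814 in dHep, and 0.824, 0.837 and 0.823 in the livers labelled KO. For both ratios the WT livers lay above every other liver. The exact two-sided permutation p was 0.1 for each ratio in each comparison with WT, the smallest possible, and 0.129 adjusted over 9 ratio comparisons. These ratios were chosen after the values were seen. With 3 livers against 3 this test cannot give a p under 0.05, so it cannot decide whether they differ. The transglutaminase that cross-links fibrin has 2 subunits: F13b, made in liver, passed nowhere (0.23 and 0.03 against WT, at 240.0 to 344.1 CPM over all livers). F13a1, made by macrophages and platelets, had 4 to 47 reads per library and changes of -1.13 ± 0.59 and -1.29 ± 0.61 (edgeR adjusted p = 0.190 and 0.112). Without dHep replicate 2 its dHep change was -2.11 (adjusted p = 0.0174, in a range of 0.0174 to 0.394), and the other passed as well (edgeR adjusted p = 0.0374, in a range of 0.00825 to 0.281).

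**Figure D4:**
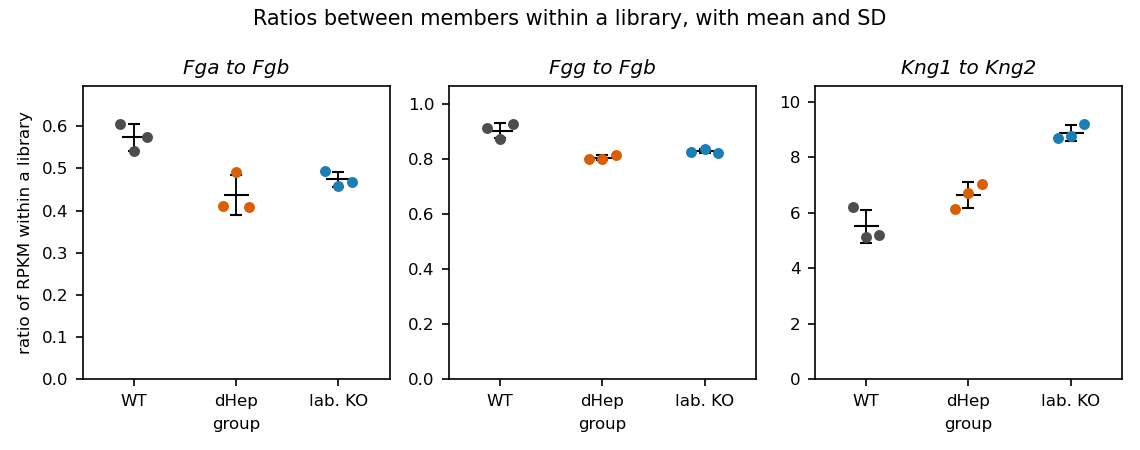
Ratios of RPKM within each library for Fga to Fgb, Fgg to Fgb and Kng1 to Kng2, with the mean and SD of 3 livers per group on axes that start at 0. The WT livers are highest for both fibrinogen ratios, and the livers labelled KO are highest for the kininogen ratio.

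Von Willebrand factor, which endothelial cells and platelets make and which tethers platelets and carries factor VIII, fell in the livers labelled KO. Vwf had 10.4, 11.8 and 11.1 CPM in WT, 7.08, 10.4 and 7.31 in dHep, and 6.76, 9.00 and 7.85 in the livers labelled KO. The livers labelled KO lay below all WT livers, and dHep replicate 2 lay just under the lowest WT liver. Vwf fell by 0.49 ± 0.17 on the log2 scale in the livers labelled KO (edgeR adjusted p = 0.0444), and its change in dHep was -0.43 ± 0.17 (adjusted p = 0.101). The call ended in edgeR without WT replicate 1 (adjusted p = 0.0751), WT replicate 2 (0.135), WT replicate 3 (0.108), KO replicate 1 (0.147), KO replicate 2 (0.0505) or KO replicate 3 (0.111), in a range of 0.00488 to 0.147. Without dHep replicate 2 the dHep change of Vwf was -0.62 (adjusted p = 0.0152, in a range of 0.0152 to 0.263).

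Of the 7 anticoagulant genes, Proc and Proz rose in both comparisons with WT and 3 genes of other cells fell in the livers labelled KO. Protein C, the protease that inactivates factors V and VIII, had 263.6, 251.5 and 240.3 CPM of Proc in WT, 337.7, 487.5 and 636.0 in dHep, and 582.0, 648.3 and 611.1 in the livers labelled KO. All livers of the other groups lay above WT, and the dHep livers were widely spread. Proc rose 1.93-fold in dHep (log2 fold change 0.95 ± 0.20, edgeR adjusted p = 0.00881) and 2.44-fold in the livers labelled KO (1.29 ± 0.20, adjusted p = 0.00116). Its cofactor protein S did not pass, with Pros1 at 79.9 to 87.1 CPM across WT, 54.1 to 88.3 across dHep and 63.9 to 68.5 in the livers labelled KO (-0.13 and -0.31 against WT, edgeR adjusted p = 0.590 and 0.146).

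Thrombomodulin, the endothelial receptor that turns thrombin towards protein C, had 7.18, 6.85 and 6.77 CPM of Thbd in WT, 2.58, 5.02 and 4.32 in dHep, and 2.40, 4.61 and 3.17 in the livers labelled KO. No other liver reached WT. Thbd fell by 1.03 ± 0.29 on the log2 scale in the livers labelled KO (edgeR adjusted p = 0.0171), a call that ended without KO replicate 1 (0.0554) or KO replicate 3 (0.0596), in a range of 0.000896 to 0.0596. In dHep the change was -0.81 ± 0.28 (edgeR adjusted p = 0.0626). It passed without dHep replicate 2 (-1.02, adjusted p = 0.0334), in DESeq2 (0.0332) and in limma voom (0.0294), in a range of 0.0294 to 0.149. The endothelial protein C receptor Procr had 6 to 51 reads per library and changes of -1.14 ± 0.45 and -1.11 ± 0.46 (edgeR adjusted p = 0.0972 and 0.0773). Without KO replicate 2 the second was -1.82 (adjusted p = 0.0178, in a range of 0.00948 to 0.217).

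Tissue factor pathway inhibitor, which blocks factor VIIa and factor Xa, had 11.5, 11.8 and 10.9 CPM of Tfpi in WT, 10.1, 8.35 and 4.90 in dHep, and 4.79, 6.87 and 3.75 in the livers labelled KO. WT livers were the highest, and the dHep livers ran from just under WT down to the range of those labelled KO. Tfpi fell by 1.14 ± 0.28 on the log2 scale in the livers labelled KO (edgeR adjusted p = 0.00942), and its change in dHep was -0.54 ± 0.27 (adjusted p = 0.175). Its relative Tfpi2, an inhibitor of plasmin and other proteases, had 77.7, 85.7 and 86.7 CPM in WT, 66.6, 48.8 and 55.0 in dHep, and 58.2, 59.1 and 62.5 in the livers labelled KO. All livers of the other groups lay below WT. Tfpi2 fell by 0.55 ± 0.12 in dHep (edgeR adjusted p = 0.00972) and by 0.48 ± 0.12 in the livers labelled KO (adjusted p = 0.00996).

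**Figure D5:**
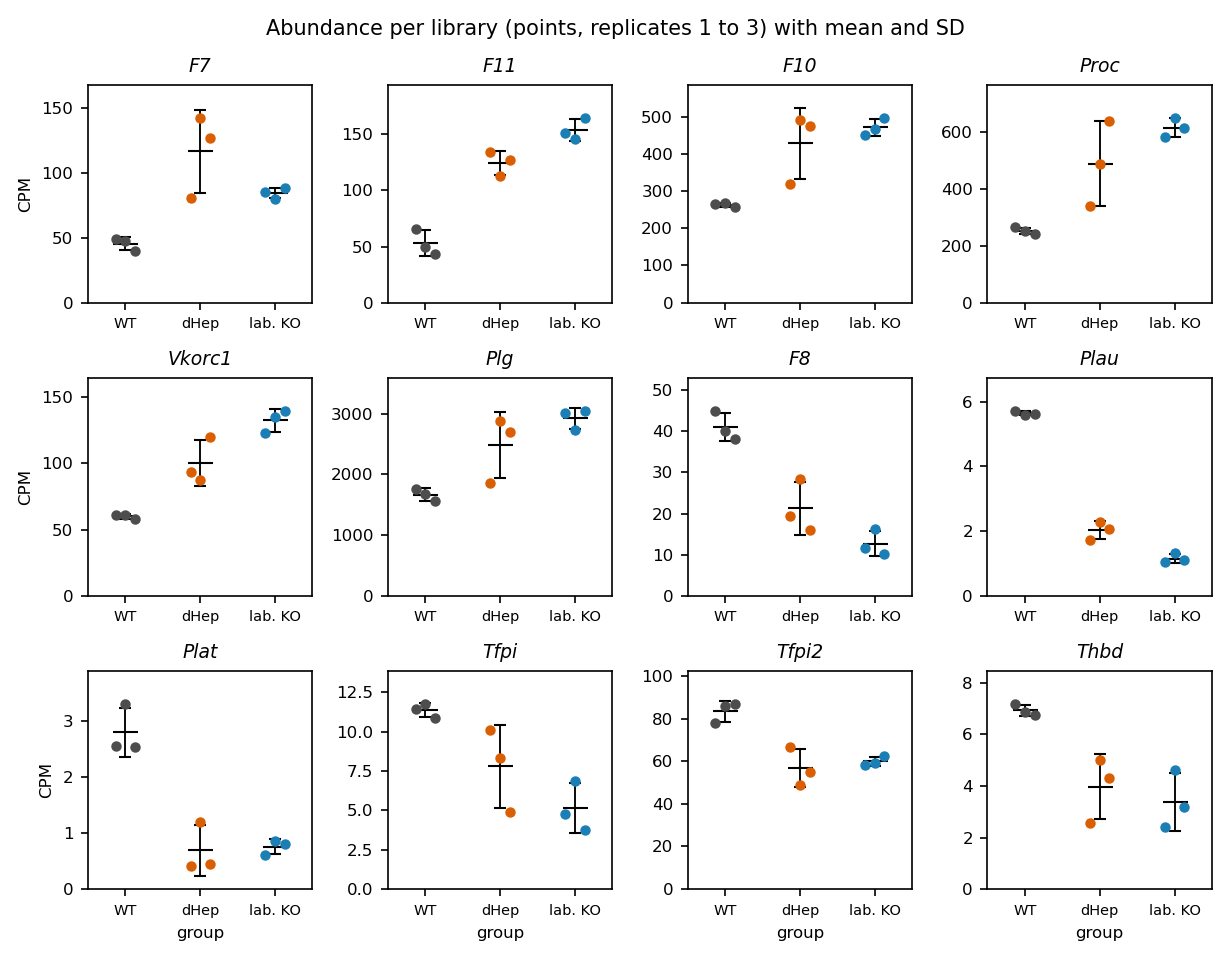
CPM of 12 members in each liver (points), with the mean and SD of the 3 livers per group. F7, F11, Proc and other hepatocyte genes lie above WT in the other groups, while F8, Plat and Plau lie below WT in all of those livers.

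In the fibrinolytic system plasminogen rose and its activators fell. Plg, the precursor of plasmin, had 1768, 1676 and 1557 CPM in WT, 1860, 2884 and 2700 in dHep, and 3006, 2729 and 3046 in the livers labelled KO. WT livers lay below all others, with dHep replicate 1 just above them. Plg rose by 0.57 ± 0.18 on the log2 scale in dHep (edgeR adjusted p = 0.0474) and by 0.81 ± 0.18 in the livers labelled KO (adjusted p = 0.00680). The dHep call ended in edgeR without any library other than dHep replicate 1: adjusted p was 0.0911, 0.133 and 0.156 with WT replicate 1, 2 or 3 left out, 0.0840 and 0.0881 with dHep replicate 2 or 3 left out, and 0.0617, 0.0695 and 0.0758 with KO replicate 1, 2 or 3 left out, in a range of 0.00309 to 0.156.

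Urokinase and tissue plasminogen activator, the proteases that turn plasminogen into plasmin, showed the largest falls among the members that passed in either comparison with WT. Plau had 5.71, 5.60 and 5.63 CPM in WT, 1.74, 2.29 and 2.06 in dHep, and 1.03, 1.31 and 1.10 in the livers labelled KO. The 3 groups were separate, and the WT livers nearly equal. Plau fell by 1.48 ± 0.19 on the log2 scale in dHep (edgeR adjusted p = 0.00115) and by 2.29 ± 0.20 in the livers labelled KO (adjusted p = 0.000148), which is 2.78-fold and 4.90-fold lower. It also fell between dHep and the livers labelled KO (-0.81 ± 0.20, edgeR adjusted p = 0.0345). That call ended in edgeR without WT replicates 1, 2 or 3 (0.0719, 0.0740 and 0.0715), dHep replicate 2 (0.0731), or KO replicates 1, 2 or 3 (0.0782, 0.0617 and 0.105), in a range of 0.0241 to 0.165. Plat rested on 9 to 89 reads per library and had 2.55, 3.30 and 2.53 CPM in WT, 0.420, 1.21 and 0.441 in dHep, and 0.611, 0.859 and 0.808 in the livers labelled KO. WT livers lay above all others, and dHep replicate 2 was the highest of the rest. Plat fell by 2.02 ± 0.40 in dHep (edgeR adjusted p = 0.00762; -2.69 without dHep replicate 2) and by 1.87 ± 0.40 in the livers labelled KO (adjusted p = 0.00551). The urokinase receptor Plaur had 8 to 33 reads per library and did not pass (-0.76 and -0.74, adjusted p = 0.195 and 0.173).

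Histidine-rich glycoprotein, which binds plasminogen and heparin, had 784.2, 708.7 and 608.9 CPM of Hrg in WT, 836.0, 1480 and 1514 in dHep, and 1165, 1063 and 1275 in the livers labelled KO. WT livers were the lowest, with dHep replicate 1 next. Hrg rose by 0.87 ± 0.22 on the log2 scale in dHep (edgeR adjusted p = 0.0210) and by 0.74 ± 0.22 in the livers labelled KO (adjusted p = 0.0236). The dHep call was lost when WT replicate 2, WT replicate 3 or dHep replicate 3 was left out (edgeR adjusted p = 0.0737, 0.0924 and 0.0549), in a range of 0.000554 to 0.0924. The other was lost when WT replicate 2, WT replicate 3 or KO replicate 3 was left out (edgeR adjusted p = 0.0691, 0.0916 and 0.0792), in a range of 0.000556 to 0.0916. Cpb2, whose active product removes the fibrin ends that plasminogen binds, had 311.0 to 339.3 CPM across WT, 310.7 to 442.7 across dHep and 317.1 to 376.7 in the livers labelled KO, and did not pass (0.26 and 0.08 against WT).

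Both genes of the vitamin K cycle rose in the livers labelled KO, and Vkorc1 in dHep too. Vkorc1, the reductase that regenerates vitamin K and the target of warfarin, had 60.9, 61.2 and 58.1 CPM in WT, 93.0, 87.5 and 119.8 in dHep, and 122.8, 135.0 and 139.4 in the livers labelled KO. The 3 groups were separate. Vkorc1 rose 1.67-fold in dHep (log2 fold change 0.74 ± 0.12, edgeR adjusted p = 0.00367) and 2.20-fold in the livers labelled KO (1.14 ± 0.12, adjusted p = 0.000287). Ggcx, the carboxylase that modifies the Gla domains, had 57.7, 57.8 and 54.0 CPM in WT, 53.7, 55.4 and 74.0 in dHep, and 82.1, 75.7 and 76.8 in the livers labelled KO. The livers labelled KO lay above all others, and 2 of 3 dHep livers lay within or just below the WT range. Ggcx rose in the livers labelled KO (0.47 ± 0.12, edgeR adjusted p = 0.0137; 0.0595 without WT replicate 3, in a range of 0.000345 to 0.0595) and did not pass in dHep (0.11, adjusted p = 0.543). Of the 7 Gla-domain genes (F2, F7, F9, F10, Proc, Pros1 and Proz), 4 rose and 0 fell in dHep and 5 rose and 0 fell in the livers labelled KO, with median log2 fold changes of 0.58 and 0.74, where 12.4% of all genes rose and 11.9% fell in dHep and 20.9% rose and 22.1% fell in the livers labelled KO.

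The 2 parts of the cargo receptor that carries factors V and VIII out of the endoplasmic reticulum did not move together. Mcfd2 had 235.6, 239.6 and 250.9 CPM in WT, 204.6, 196.1 and 215.9 in dHep, and 272.1, 299.2 and 307.6 in the livers labelled KO. The 3 groups were separate, with dHep lowest. Mcfd2 rose by 0.51 ± 0.09 on the log2 scale from dHep to the livers labelled KO (edgeR adjusted p = 0.0113; 0.0592 without KO replicate 3, in a range of 7.55e-06 to 0.0702). Against WT it rose by 0.28 ± 0.09 in the livers labelled KO (edgeR adjusted p = 0.0365), and its change in dHep was -0.24 ± 0.09 (adjusted p = 0.0911). The rise against WT ended in edgeR without WT replicates 1, 2 or 3 (0.126, 0.117 and 0.0793) or KO replicates 2 or 3 (0.0977 and 0.124), in a range of 0.00226 to 0.126. Lman1, the membrane lectin of the receptor, had 239.0 to 262.8 CPM across WT, 215.0 to 316.8 across dHep and 203.6 to 232.4 in the livers labelled KO, and did not pass (0.04 and -0.20 against WT).

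The dHep livers differed among themselves in the hepatocyte-made factors. The median log2 ratio of those 20 genes to their WT means was 0.01 in dHep replicate 1, 0.62 in replicate 2 and 0.47 in replicate 3. It was -0.07 to 0.07 in the WT livers and 0.58 to 0.73 in those labelled KO. Replicate 1 was the lowest dHep liver for 17 of the 20 genes. Without it F2, F12, F13b, Fgb, Kng1, Kng2 and Cpb2 passed in dHep against WT as well, with log2 fold changes of 0.64, 0.67, 0.35, 0.59, 0.75, 0.42 and 0.40. Leaving it out also moved calls of the livers labelled KO against WT, since all groups share 1 estimate of the spread: Kng1 (0.44, edgeR adjusted p = 0.0114, in a range of 0.00348 to 0.261), Kng2 (-0.25, 0.0475, in a range of 0.0180 to 0.403) and Pros1 (-0.31, 0.00971, in a range of 0.00480 to 0.303) then passed. The summed hepatocyte markers were 105000 CPM in that liver, the lowest of its group, and their part in the result was not tested.

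Most members did not separate the livers labelled KO from dHep, and which did depended on single livers and on the method. Without dHep replicate 1, Kng2 (-0.68, edgeR adjusted p = 0.00609, in a range of 0.00609 to 0.246) and Pros1 (-0.37, 0.0237, in a range of 0.0237 to 0.891) passed as lower in the livers labelled KO. Without dHep replicate 2, Fga passed as higher (0.78, edgeR adjusted p = 0.0342, in a range of 0.0342 to 0.367). Without dHep replicate 3, Proc (0.57, edgeR adjusted p = 0.0326), Vkorc1 (0.55, 0.00643) and Ggcx (0.52, 0.00629) passed as higher and Tfpi (-0.84, 0.0342) as lower. Their adjusted p ranged over the alternatives from 0.0326 to 0.539 for Proc, 0.00643 to 0.227 for Vkorc1, 0.00629 to 0.291 for Ggcx and 0.0342 to 0.436 for Tfpi. With all libraries in the edgeR fit, the changes of these 7 genes missed the threshold. With all libraries in DESeq2, Kng2 (adjusted p = 0.0277) and Vkorc1 (0.0396) passed, and in limma voom Vkorc1 did (0.0442).

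Markers of the cells that make the other factors were mostly lower in the livers labelled KO, and less uniformly in dHep. In dHep 2 of 8 sinusoidal endothelial, 2 of 7 vascular endothelial, 4 of 8 stellate cell, 5 of 8 monocyte and macrophage and 1 of 5 Kupffer cell markers fell, with median log2 fold changes of -0.15, -0.37, -0.79, -1.43 and 0.22. In the livers labelled KO 6, 4, 7, 7 and 2 of the same lists fell, with medians of -0.90, -1.27, -1.21, -1.88 and -1.08. None of these markers rose in either comparison. Among all genes tested, 11.9% fell and 12.4% rose in dHep, and 22.1% fell and 20.9% rose in the livers labelled KO. Summed over 8 of 8 sinusoidal endothelial markers, the level was 331.8 to 362.2 CPM across WT, 280.1 to 323.3 across dHep and 177.5 to 266.4 in the livers labelled KO. The 7 vascular endothelial markers summed to 201.8 to 222.8 CPM across WT, 136.5 to 198.9 across dHep and 92.86 to 134.8 in the livers labelled KO. The 8 stellate cell markers summed to 582.2 to 654.3, 308.2 to 479.7 and 252.2 to 339.0 CPM in the same order, and 8 monocyte and macrophage markers to 215.8 to 257.4, 86.81 to 150.6 and 44.53 to 87.71 CPM. The 5 Kupffer cell markers summed to 263.8 to 361.4, 176.9 to 321.5 and 66.93 to 133.9 CPM, so that dHep overlapped WT. None of these markers was at 0 in all libraries. The part of these cells in the falls of F8, Vwf, Thbd, Tfpi, Plat and Plau was not tested. The 9 genes listed as platelet markers summed to 16.3 to 17.6 CPM in WT and 6.39 to 15.3 CPM elsewhere. Most of the sum was Clec1b, at 13.1 to 14.5 CPM in WT, so the sum says little of the other genes listed. Which cells the Clec1b reads came from was not tested, so a change in platelets cannot be read from this sum. Of the 4 that could be tested, 0 passed in dHep, and 1, Clec1b, fell in the livers labelled KO. Their log2 fold changes in dHep were -0.57 for Clec1b, 0.58 for Itga2b, 0.36 for Ppbp and -0.93 for Pf4. In the livers labelled KO, Itga2b (-0.06), Ppbp (-0.24) and Pf4 (-0.34) did not pass. The platelet glycoprotein genes Gp1ba, Gp1bb and Gp6 had 0 to 3 reads per library and Gp9 had 0 to 10.

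Serpins, receptors and other partners of these factors were looked at from a separate list of 28 genes, of which 23 could be tested. In dHep 7 rose and 7 fell (median log2 fold change 0.17), and in the livers labelled KO 13 rose and 5 fell (median 0.59). Of all genes tested, 12.4% rose and 11.9% fell in dHep, and 20.9% rose and 22.1% fell in the livers labelled KO. Serpinf2, which encodes the plasmin inhibitor alpha-2-antiplasmin, rose by 0.78 ± 0.12 on the log2 scale in dHep and by 1.05 ± 0.12 in the livers labelled KO (edgeR adjusted p = 0.00262 and 0.000369). Anxa2, a cell-surface receptor for plasminogen and its tissue activator, fell by 3.03 ± 0.14 and by 2.46 ± 0.13 (edgeR adjusted p = 1.67e-05 and 1.05e-05). F2r, the thrombin receptor PAR1, fell by 0.89 ± 0.10 in dHep (edgeR adjusted p = 0.000711), and was higher by 1.23 ± 0.10 in the livers labelled KO than in dHep (adjusted p = 0.000293). Against WT it rose by 0.34 ± 0.10 in the livers labelled KO (edgeR adjusted p = 0.0197). That rise was lost in edgeR without WT replicate 2 or 3 (0.0949 and 0.0515) or KO replicate 2 or 3 (0.0629 and 0.0797), in a range of 0.00161 to 0.0949. A2m, a broad protease inhibitor, had 88 reads over the WT livers and 1 over the dHep livers, a ratio of 84.8 after scaling with a 95% counting interval of 14.8 to 3385. This interval pools reads over the mice and leaves out the spread between them. The livers labelled KO had 6 reads of A2m, a fall of 3.38 ± 0.52 on the log2 scale against WT (edgeR adjusted p = 0.00118). Of 10 transcription factors that act on liver factor genes, 3 rose in dHep, and 3 rose and 1 fell in the livers labelled KO. Thus 30.0% and 40.0% of them passed, near the 24.3% and 43.0% of all genes tested. The factor that fell was the estrogen receptor Esr1 (-1.74 ± 0.43, edgeR adjusted p = 0.0108). Hnf4a, the factor of the series title, had changes of 0.31 ± 0.13 and 0.32 ± 0.13 and did not pass (edgeR adjusted p = 0.105 and 0.0692). Its change in the livers labelled KO passed in DESeq2 (adjusted p = 0.0187), in limma voom (0.00398) and in edgeR with only the 2 groups compared (0.0121). It also passed in edgeR without dHep replicate 2 or dHep replicate 3 (0.0351 and 0.0373), in a range of 0.00398 to 0.193. In DESeq2 its change in dHep passed (0.0335, in a range of 0.0335 to 0.353).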

How the data were processed

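Per the submitters' processing notes, reads were checked with FastQC, aligned to mm10 with HISAT2 2.1.0 and compared with DESeq2. The authors counted reads per gene with featureCounts 1.6.2 and strand setting 2, per the file headers, and deposited these raw counts unscaled beside a Length column, another kind of unit (gene length in bases), used here for RPKM. No column of values stayed unmatched (0). All 9 libraries were fitted together by the quasi-likelihood method of edgeR 4.0.16, run in R 4.3.3, with TMM factors (0.883 to 1.10) and filterByExpr (minimum count 10, minimum total 15). Benjamini-Hochberg adjustment covered all 13141 genes, and a gene was called at an adjusted p under 0.05. SE is the log2 fold change divided by the square root of F. CPM use TMM-scaled library sizes. Levels are compared between genes only in RPKM. Assigned reads limit precision for members under about 1 CPM. The procedure was tested on simulated counts in which 200 of the 13141 genes were changed. There it found 47% of 2-fold changes in dHep against WT, 58% in the livers labelled KO against WT and 59% in those against dHep. For 4-fold changes it found 87%, 90% and 91%. In the data a larger share of genes passed, 24.3%, 43.0% and 9.62% in the same order. The cutoff on p depends on that share, so these rates hold for the simulated setting only. A gene that did not pass is not shown to be unchanged.

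The members and lists were chosen with earlier results of these data known. Every member is accounted for by role, with values per library for each that passed in 1 comparison or more and for F2, F7, Fga, Fgb, Fgg and Plg. From other lists up to 4 genes that passed are named by lowest p, with F2rl1 and Hnf4a in any case; of those a subset is printed. Alternatives were median-of-ratios size factors, DESeq2 1.42.0, limma voom (limma 3.58.1), no filter, a stricter filter (1 CPM in 3 libraries), only the 2 groups compared, the replicate number as a block, each library left out in turn, and WT replicate 1 with dHep replicate 2 left out together. Leaving out single libraries for the ratios was added after the data were seen.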

Additional observations from a re-analysis of the deposited data

How the results depend on the processing

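Of 13 members called in dHep against WT, 7 stayed called under all 17 alternatives, of 21 in the livers labelled KO against WT 15, and of 2 in the livers labelled KO against dHep 0; no called member changed sign. When single libraries were left out, the number called was 8 to 19, 16 to 25 and 0 to 7 in the 3 comparisons, the number that rose 4 to 15, 10 to 16 and 0 to 4, and the number that fell 3 to 7, 5 to 9 and 0 to 4. Without WT replicate 1 and dHep replicate 2 together, 4 rose in dHep, and 1 was called and 0 fell in the livers labelled KO against dHep. In that last comparison DESeq2 called 6 (3 rose and 3 fell), limma voom had 2 that rose and 0 that fell, and edgeR with only the 2 groups called 0 (0 rose and 0 fell), against 9 members at an unadjusted p under 0.05 in the edgeR fit of all groups. Limma voom had 11 that fell in the livers labelled KO against WT. With the replicate number as a block (the replicate block), edgeR called 12, 19 and 2 members, of which 7, 12 and 1 rose and 5, 7 and 1 fell. The labels do not say whether the numbers pair the mice. Deviations of libraries with the same number correlated at -0.272 to 0.0273, and those with different numbers at -0.14 to 0.273. These correlations show no pairing by number but cannot exclude a shared litter, cage or batch. Esr1, at 0.08 in dHep against WT, ranged from -0.73 without dHep replicate 2 to 0.37 without dHep replicate 3 and was at -0.83 without WT replicate 1 and dHep replicate 2. Median-of-ratios size factors moved the median of all genes by under 0.1. Plaur, F13a1 and Procr had 4 to 51 reads per library, which limits their precision. The causes of these shifts were not tested.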
